A study of Homo sapiens with 49 samples.

Results

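The transcription factor MYC, its dimer partner MAX, the MAX-binding antagonists and a set of genes for ribosome biogenesis were followed in Ishikawa cells treated with ethinyl estradiol (EE). Its members are a list of gene symbols, matched to the platform annotation, and the list was drawn up with earlier results of these data known. It held 34 genes, of which 33 were measured among 11075 genes tested, and GNL3 was not analysed here. Each gene was represented by its probe set (a group of oligonucleotide probes for 1 transcript) with the highest mean over all 49 arrays. Ishikawa is an established line from a human endometrial adenocarcinoma, and EE is the synthetic estrogen of oral contraceptives. Cells in CSS-supplemented medium, an abbreviation that the labels leave unexplained, received ethanol vehicle (6 arrays) or EE at 0.1 pM (6 arrays), 0.3 pM (7 arrays), 1, 3, 10, 100 or 1000 pM (6 arrays each) for 72 h, with part of the medium renewed daily. Ethanol was at 0.1% v/v in the medium. Nothing in the labels states that replicates came from separate cultures, so the p-values cover no more than the variation among these samples, possibly technical.

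MYC is a basic helix-loop-helix leucine zipper protein that binds DNA as a dimer with MAX, at the E-box sequence CACGTG and its variants. MXD1, MXD4, MXI1 and MNT also pair with MAX, and these dimers repress genes that MYC with MAX activates. Ribosome biogenesis, one of the best known outputs of MYC, begins in the nucleolus with transcription of ribosomal RNA by RNA polymerase I, followed by modification, cleavage and assembly of that RNA with ribosomal proteins. In the uterus, estrogen is a growth signal of the epithelium, and MYC is a classic early estrogen response gene.

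All values are log2 expression levels, on which a difference of 1 is a 2-fold change, and levels are compared only within a probe set. The cells responded to EE: PGR, the progesterone receptor gene, was 5.13 ± 0.21 (SE) higher at 1000 pM than in vehicle, and GREB1, an estrogen receptor target and cofactor, 2.63 ± 0.11 higher (limma, adjusted p = 1.27e-24 and 2.33e-24), each on 6 of 6 arrays. All 10 epithelial markers examined were above the log2 floor of 4 on all 49 arrays, whereas 0 of 6 leukocyte and 0 of 5 endothelial markers passed the low-value filter, and of 6 stromal markers only COL3A1 did. COL3A1 was 0.60 ± 0.19 lower at 1000 pM than in vehicle (limma, adjusted p = 0.0414, and from 0.0838 to 0.123 without vehicle replicate 2, 3 or 4), while the other 5 stromal markers were below the floor on every array. On 4 arrays, namely replicate 5 of vehicle, replicate 2 of 0.3 pM and replicate 6 of both 3 and 1000 pM, the 3′ control probe set of beta-actin exceeded the 5′ one by 2.67 to 4.62, against 0.80 to 2.06 on the other 45. Relative to the mean of the other arrays of their groups, MYC was 0.32 to 1.19 lower and BOP1 0.89 to 1.51 higher on all 4 of these arrays, and the calls among the 33 genes are given with and without these arrays. In RNA from whole cultures, fewer cells expressing a gene and less RNA per cell cannot be told apart.

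Estimated changes of the 33 genes were small across the concentration range in which PGR rose. MXD1, an antagonist of MYC, was the only 1 of the 33 that passed the test over all 8 groups, and it fell by about 0.27 at 100 and 1000 pM. MYC was 0.39 ± 0.13 higher at 100 pM, and 0.19 higher without vehicle replicate 5, where it no longer passed (limma, adjusted p = 0.0409 and 0.257). In the comparison of 100 and 1000 pM (12 arrays) with 0.1 and 0.3 pM (13 arrays), whose estimate uses no vehicle array, the nucleolar genes FBL and NOP56 rose by 0.12 and 0.17 and MXD1 fell by 0.21. BOP1 had the largest estimates in every comparison with vehicle except those at 3 and 10 pM, where MYC was further from 0, and it passed the test in none of them with all arrays.

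By count, limma called 0 of the 33 genes at 0.1, 0.3, 1, 3 and 10 pM, where 0%, 0%, 0%, 0.153% and 0.858% of all genes were called. At an unadjusted p under 0.05 (limma) the numbers at these 5 concentrations were 0, 0, 0, 1 and 5 of the 33. Those over all 11075 genes were 467, 288, 884, 357 and 1415. At 100 pM 2 of the 33 were called (MYC higher, MXD1 lower), beside 10.1% of all genes (3.85% higher, 6.27% lower). At 1000 pM 1 was called (MXD1, lower), beside 7.21% of all genes (2.88% higher, 4.33% lower). In the comparison without vehicle arrays 3 of the 33 were called, beside 13.0% of all genes (5.05% higher, 7.91% lower), and the moderated F test over the 8 groups called 1, beside 6.99%. Counts of 1 to 3 genes are too few to set these shares apart from those of all genes. Without vehicle replicate 6 the count at 100 pM was 5, without vehicle replicate 5 that for high against low concentrations was 6, and without replicate 1, 2, 3 or 4 at 100 pM only MXD1 was called there. The shares of all genes called without these single arrays are not given here. The median change of the 33 was 0.03 at 1000 pM and 0.04 in the comparison without vehicle arrays, against −0.01 and −0.02 over all genes. In the latter comparison 21 of the 33 were above 0, against 42.7% of all genes. The comparisons share their vehicle or high-concentration arrays and so are not independent of each other.

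Without the 4 arrays, the comparison of high with low concentrations called 8 of the 33, beside 21.2% of all genes (8.86% higher, 12.4% lower): FBL, GAR1, MYC, NOP56, UTP20 and WDR43 were higher and BOP1 and MXD1 lower. At 10 pM 1 was called (MYC), beside 1.39% of all genes, and at 100 pM 3 (GAR1 higher, BOP1 and MXD1 lower), beside 11.0% (3.86% higher, 7.15% lower). The count at 1000 pM against vehicle was again 1 (MXD1, −0.24 ± 0.08, limma adjusted p = 0.0462), beside 8.81% of all genes (3.24% higher, 5.57% lower).

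**Figure D1:**
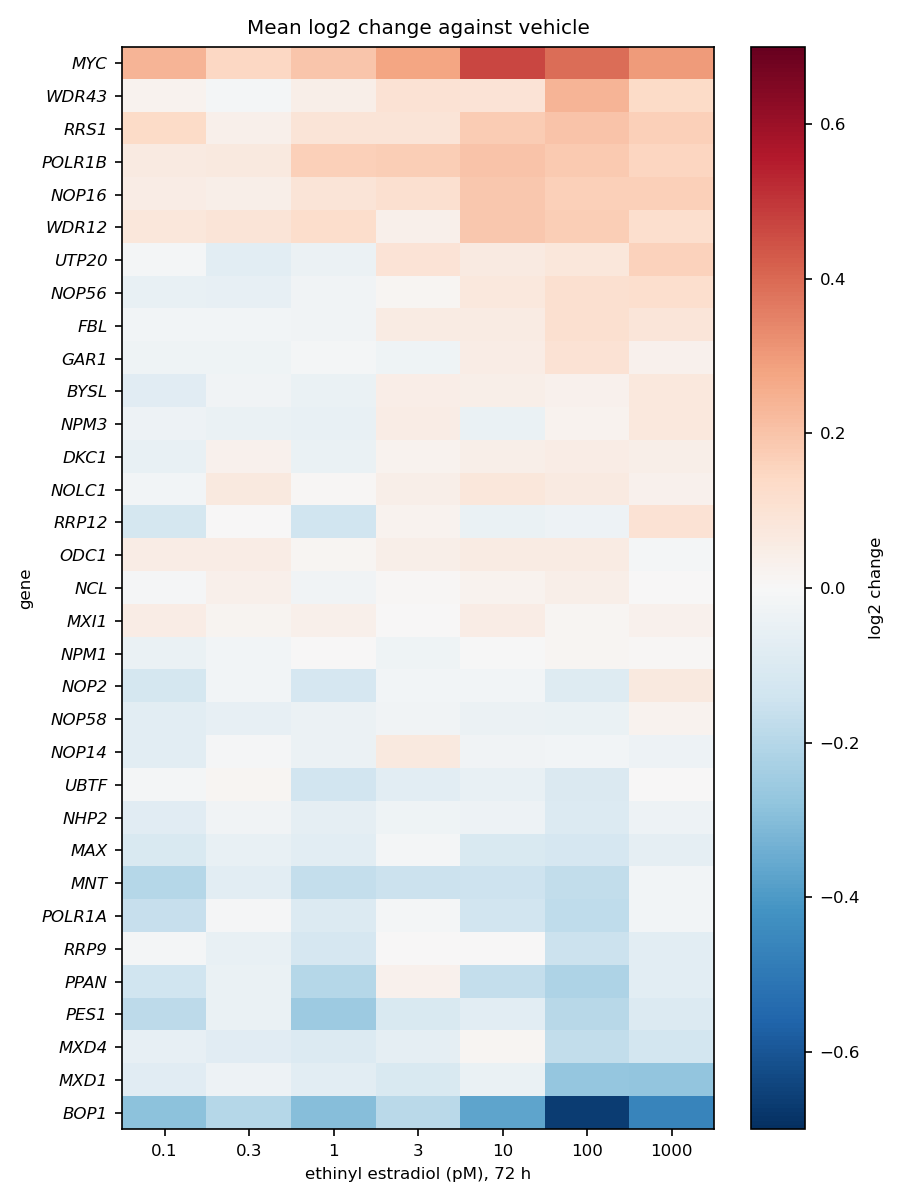
Mean log2 change against vehicle (colour, red higher and blue lower, on the scale at the right) for the 33 measured genes (rows) at 7 EE concentrations in pM (columns), each column a difference of group means over 6 or 7 treated and 6 vehicle arrays. MYC at the top reached 0.47 at 10 pM and BOP1 at the bottom −0.66 at 100 pM, and most other cells are pale.

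Promoter sequence was examined for the E-box CACGTG, the letters that MYC and MAX dimers bind and that read the same on both strands, in RefSeq windows of 250 bases before to 50 after a gene start (GRCh38.p14). A window was matched by symbol for 27 of the 33 genes, 8 of them with more than 1 window. The E-box stood in 12 of the 27 (44.4%), against 12.97% of the 9193 tested genes with a window and 7.256% of all 35116 windows of this length. The 12 genes were BYSL, FBL, GAR1, MNT, MXD4, NOP14, NOP2, ODC1, PES1, RRP9, UTP20 and WDR43. In high against low concentrations their changes ranged from −0.08 (MXD4) to 0.18 (WDR43) with a median of 0.05, and those of the 15 without an E-box from −0.21 (MXD1) to 0.17 (NOP56) with a median of 0.01, a description with no test. The full palindromic estrogen response element, GGTCANNNTGACC, was in 0 of the 27 and in 20 of all windows (0.057%). A match in these letters is not evidence of binding, and a missing match says only that the letters are not in this window.

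The stretches shown run from 100 bases before to 30 bases after the start, 5′ to 3′ on the gene's strand, with the E-box in capitals. They are shown for the 3 genes called in high against low concentrations and for the 2 next nucleolar genes with an E-box, UTP20 and WDR43. MXD1 is at chr2:69915009-69915138 (plus strand), FBL at chr19:39846350-39846479 (minus), NOP56 at chr20:2652532-2652661 (plus), UTP20 at chr12:101280005-101280134 (plus) and WDR43 at chr2:28894567-28894696 (plus). The E-box began at base 7 of the gene in FBL, at base 4 in WDR43 and 10 bases before the start in UTP20, whereas MXD1 and NOP56 had none.
MXD1: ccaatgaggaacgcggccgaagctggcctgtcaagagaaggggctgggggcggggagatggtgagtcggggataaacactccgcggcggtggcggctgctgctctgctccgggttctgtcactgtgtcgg
FBL: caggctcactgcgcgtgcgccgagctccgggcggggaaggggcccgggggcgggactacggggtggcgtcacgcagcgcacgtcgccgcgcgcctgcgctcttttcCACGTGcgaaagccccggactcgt
NOP56: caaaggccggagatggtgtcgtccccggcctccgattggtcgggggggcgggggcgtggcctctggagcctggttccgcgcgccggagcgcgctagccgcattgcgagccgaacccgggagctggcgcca
UTP20: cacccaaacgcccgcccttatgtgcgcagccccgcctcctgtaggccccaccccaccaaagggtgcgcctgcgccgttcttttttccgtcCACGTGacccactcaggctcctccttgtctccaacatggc
WDR43: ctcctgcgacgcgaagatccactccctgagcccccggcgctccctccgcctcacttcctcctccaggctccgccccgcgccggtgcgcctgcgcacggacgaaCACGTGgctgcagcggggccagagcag

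MYC itself, the activating member of the network, lay between 8.04 and 9.46 in vehicle, with a median of 9.16 (mean 9.03 ± 0.50, SD, n = 6). The lowest vehicle value was that of replicate 5, and the other 5 vehicle arrays read 9.11 to 9.46. At 10 pM the lowest, median and highest arrays read 9.34, 9.49 and 9.69, at 100 pM 9.30, 9.40 and 9.58, and at 1000 pM 9.06, 9.34 and 9.57. Arrays at 10 and 100 pM overlapped the higher vehicle arrays. Those at 1000 pM spanned the range of the 5 higher vehicle arrays and lay above replicate 5. At 0.1 to 1 pM the group means were 9.17 to 9.27. MYC was highest at 10 pM, 1.38-fold above vehicle (0.47 ± 0.13, 6 of 6 arrays above the vehicle mean), a difference that did not pass (limma, adjusted p = 0.0645). Its estimate at 0.1 pM was 0.24, also without passing. Without vehicle replicate 5 the vehicle mean was 9.23, beside a mean of 9.27 at 0.1 pM. In high against low concentrations with all arrays MYC was 0.15 ± 0.09 higher, which did not pass (limma over all probe sets, adjusted p = 0.338).

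At 100 pM MYC was 1.31-fold above vehicle on 6 of 6 arrays, and this passed (limma, adjusted p = 0.0409). Without vehicle replicate 5 the difference at 100 pM was 0.19 (limma, adjusted p = 0.257), and the call was also lost without any 1 of 100 pM replicates 1 to 5 (differences of 0.36 to 0.40, limma adjusted p from 0.0575 to 0.0841). Without all 4 arrays the vehicle mean was 9.23 ± 0.14 (SD, n = 5) and the rise at 10 pM was called (0.27 ± 0.07, limma adjusted p = 0.0413), whereas that at 100 pM was not (0.19 ± 0.07, adjusted p = 0.0761). The estimates at 1000 pM were 0.30 ± 0.13 with all arrays and 0.15 ± 0.08 without the 4, and neither passed (limma, adjusted p = 0.178 and 0.244).

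MAX, the shared dimer partner, showed no difference that passed at any concentration. Its vehicle arrays read 7.78 to 8.38 with a median of 7.89, and those at 1000 pM 7.79 to 8.18 with a median of 7.85, so that the groups overlapped nearly throughout. The difference was −0.06, with a 95% interval of −0.25 to 0.12, and its sign turned with array weights (0.0042), with the mean of its probe sets (0.15), without the 2 arrays of highest beta-actin difference (0.0189), with that difference as a covariate (0.0046) and without replicate 5 of every group (0.0295).

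MXD1 encodes a protein that competes with MYC for MAX and is usually found in differentiating cells. Its vehicle arrays read 5.51 to 5.75 with a median of 5.63, and 0.1, 0.3 and 1 pM gave similar ranges between 5.46 and 5.73. At 100 pM the arrays read 5.16 to 5.53 with a median of 5.37, and at 1000 pM 5.27 to 5.48 with a median of 5.36. All 6 arrays at 1000 pM lay below all 6 vehicle arrays, and at 100 pM the highest array lay above the lowest vehicle array. MXD1 was the only 1 of the 33 genes without overlap between 1000 pM and vehicle, beside 1.65% of all genes that lay wholly below vehicle and 1.56% wholly above. At 100 pM 0 of the 33 lay wholly apart from vehicle (1.99% of all genes above, 2.37% below), and 0 did so between high and low concentrations (0.930% above, 0.885% below).

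MXD1 was 1.20-fold lower at 100 pM (−0.27 ± 0.07, limma adjusted p = 0.0116) and 1.21-fold lower at 1000 pM (−0.27 ± 0.07, adjusted p = 0.00974), each on 6 of 6 arrays. Against 0.1 and 0.3 pM the 12 high-concentration arrays were 0.21 ± 0.05 lower (limma, adjusted p = 0.00162), and 10 of these 12 lay below every low-concentration array. The arrays at 3 and 10 pM spread more widely (5.38 to 5.74 and 5.29 to 5.74), where replicates 5 and 6 at 3 pM and replicates 3 and 5 at 10 pM read 5.29 to 5.41 and the others 5.54 to 5.74. A second MXD1 probe set of lower signal gave −0.19 ± 0.12 at 1000 pM (limma over all probe sets, adjusted p = 0.459). This second set gave −0.10 ± 0.12 at 100 pM and −0.05 ± 0.08 in high against low concentrations (adjusted p = 0.577 and 0.814). With the mean of both probe sets no MXD1 difference passed (limma, adjusted p = 0.117 at 100 pM, 0.0743 at 1000 pM and 0.12 for high against low). With only the 12 arrays of a comparison in the fit the calls at 100 and 1000 pM were lost (limma, adjusted p = 0.137 and 0.0933). The call at 100 pM was also lost without replicate 1 or replicate 5 of every group (−0.25 and −0.21, limma adjusted p = 0.0698 and 0.0993), and that at 1000 pM without replicate 4 of every group (−0.23, adjusted p = 0.0649). Over all 8 groups MXD1 passed the F test (limma, adjusted p = 0.0194), and not without replicate 5 at 100 pM.

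The chosen probe sets of the other MAX-binding antagonists did not pass at any concentration. MXD4 arrays read 7.02 to 7.36 in vehicle and 6.88 to 7.36 at 1000 pM, and the difference was −0.13 ± 0.08 (5 of 6 arrays below the vehicle mean, limma adjusted p = 0.396). Its probe set is of a kind that can bind several transcripts, and without the 4 arrays the difference was −0.07 ± 0.08. Of 2 further MXD4 probe sets of lower signal, 1 fell at 100 pM by 0.45 ± 0.13 (limma over all probe sets, adjusted p = 0.0306) and the other differed by −0.48 ± 0.17 (adjusted p = 0.0677), against −0.17 ± 0.08 for the chosen set (adjusted p = 0.178). At 1000 pM these 2 sets gave −0.13 and −0.38 and did not pass (adjusted p = 0.677 and 0.238). MXI1 read 7.55 to 8.15 in vehicle and 7.86 to 8.12 at 1000 pM, and MNT 6.74 to 7.57 and 6.81 to 7.20. Differences at 1000 pM were 0.03 for MXI1 and −0.02 for MNT, and both changed sign without the 4 arrays (−0.04 and 0.05). The lowest MXI1 and the highest MNT vehicle values were again those of replicate 5.

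**Figure D2:**
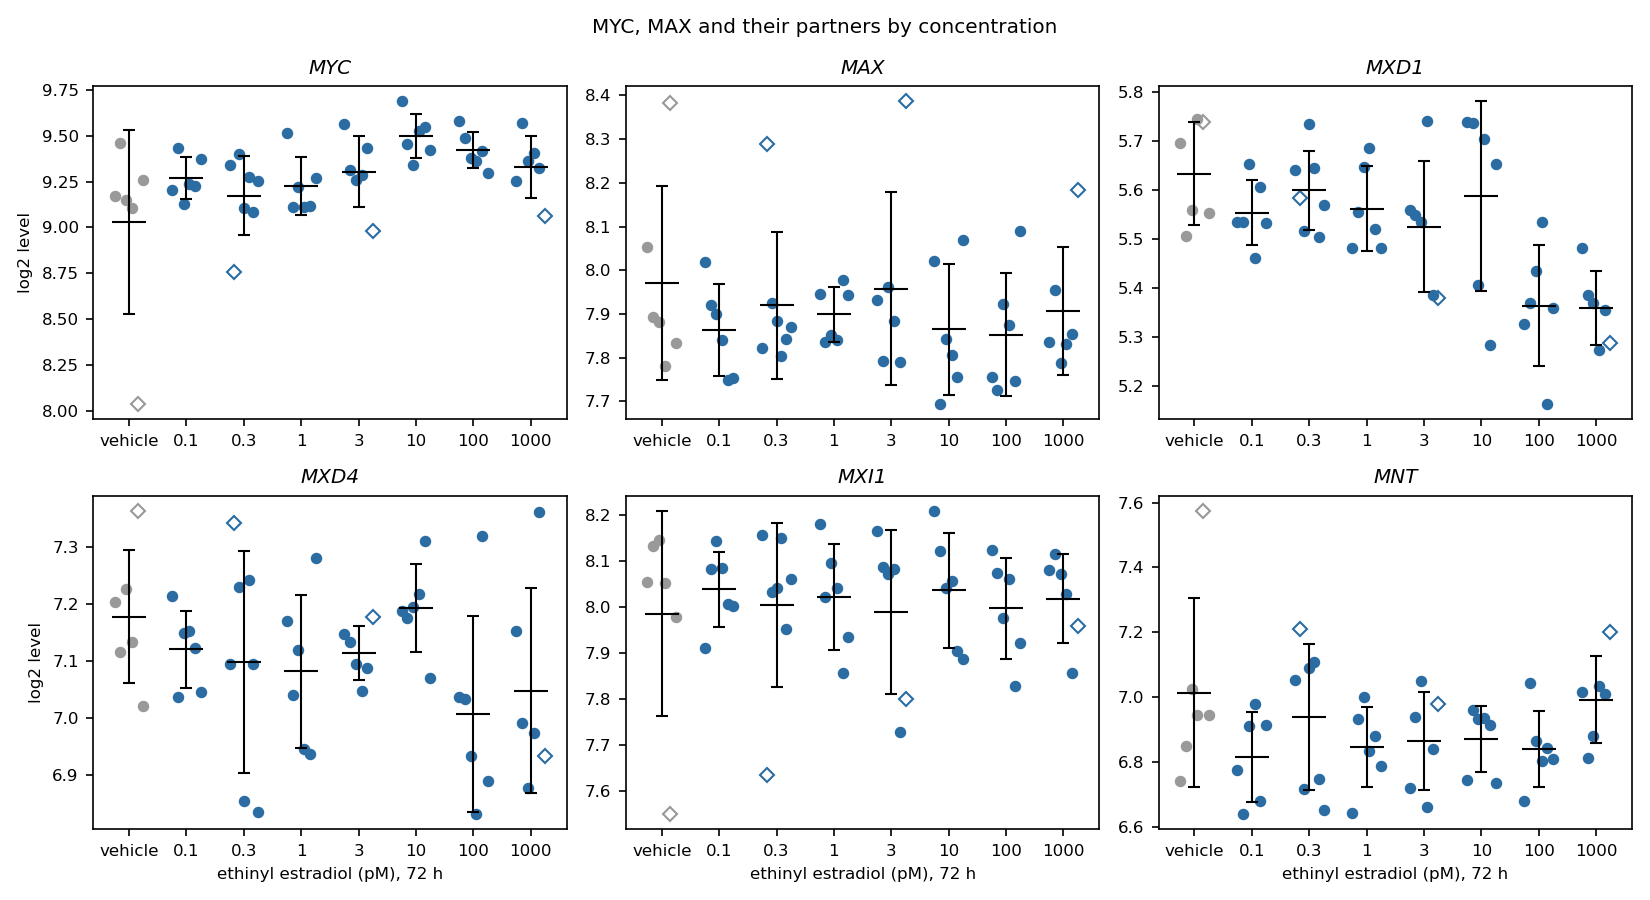
Log2 level (vertical axes, a scale per gene) of MYC, MAX, MXD1, MXD4, MXI1 and MNT by EE concentration at 72 h (horizontal axes, pM), 1 point per array (grey vehicle, blue EE, open diamonds the 4 arrays of high beta-actin difference), with mean and SD as bars. MXD1 points at 100 and 1000 pM sit at 5.16 to 5.53, and the open diamond in the MYC vehicle column lies at 8.04.

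Nucleolar genes are described in the order of ribosome assembly. Of the RNA polymerase I genes, POLR1A and POLR1B encode the catalytic pair of large subunits and UBTF a factor that keeps ribosomal RNA genes open. None of these 3 passed in any comparison: at 1000 pM POLR1A differed by −0.02 ± 0.15, POLR1B by 0.15 ± 0.09 and UBTF by 0.00 ± 0.10 (limma, adjusted p = 0.964, 0.407 and 0.987). POLR1B was above the vehicle mean on 6 of 6 arrays at 10, 100 and 1000 pM, where its estimates were 0.20, 0.18 and 0.15. Without the 4 arrays these were 0.07, 0.05 and 0.04. The vehicle mean was then 7.94, and the lowest arrays at 10, 100 and 1000 pM, 7.85, 7.88 and 7.83, lay below it.

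FBL (fibrillarin, the methyltransferase of box C/D ribonucleoproteins that modify ribosomal RNA) gave an upward shift of small size at high concentrations. The 13 arrays at 0.1 and 0.3 pM read 10.61 to 10.84 with a median of 10.75, and the 12 arrays at 100 and 1000 pM 10.77 to 11.01 with a median of 10.85. All 12 high arrays were above the mean of the low ones, 7 of the 12 were above every low array, and 9 of the 13 low arrays were below every high array. The difference was 0.12 ± 0.03, or 1.09-fold (limma, adjusted p = 0.00571), and it was also 0.12 without the 4 arrays (adjusted p = 0.00439). Against vehicle, FBL was 0.11 ± 0.05 higher at 100 pM and 0.09 ± 0.05 higher at 1000 pM, neither of which passed (limma, adjusted p = 0.0957 and 0.299). Leaving out replicate 4 of every group took the call away (0.11, limma adjusted p = 0.0556).

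NOP56 and NOP58, the paired core proteins of the same box C/D particles, differed from each other in result. NOP56 read 10.20 to 10.55 at 0.1 and 0.3 pM with a median of 10.38, and 10.37 to 10.66 at 100 and 1000 pM with a median of 10.55. All 12 high arrays exceeded the mean of the low ones and 6 exceeded every low array. The difference was 0.17 ± 0.05, or 1.13-fold (limma, adjusted p = 0.0158, and 0.00273 without the 4 arrays). It did not pass under quantile normalization (0.16, limma adjusted p = 0.0569) or without replicate 4 of every group (0.14, adjusted p = 0.133). Vehicle arrays of NOP56 spread from 10.29 to 10.73, with replicates 5 and 6 apart from the rest, and the difference at 1000 pM was 0.12 ± 0.07 (limma, adjusted p = 0.391). NOP58 differed by 0.05 ± 0.06 between high and low concentrations (limma, adjusted p = 0.66), and the difference between the 2 genes was not tested.

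**Figure D3:**
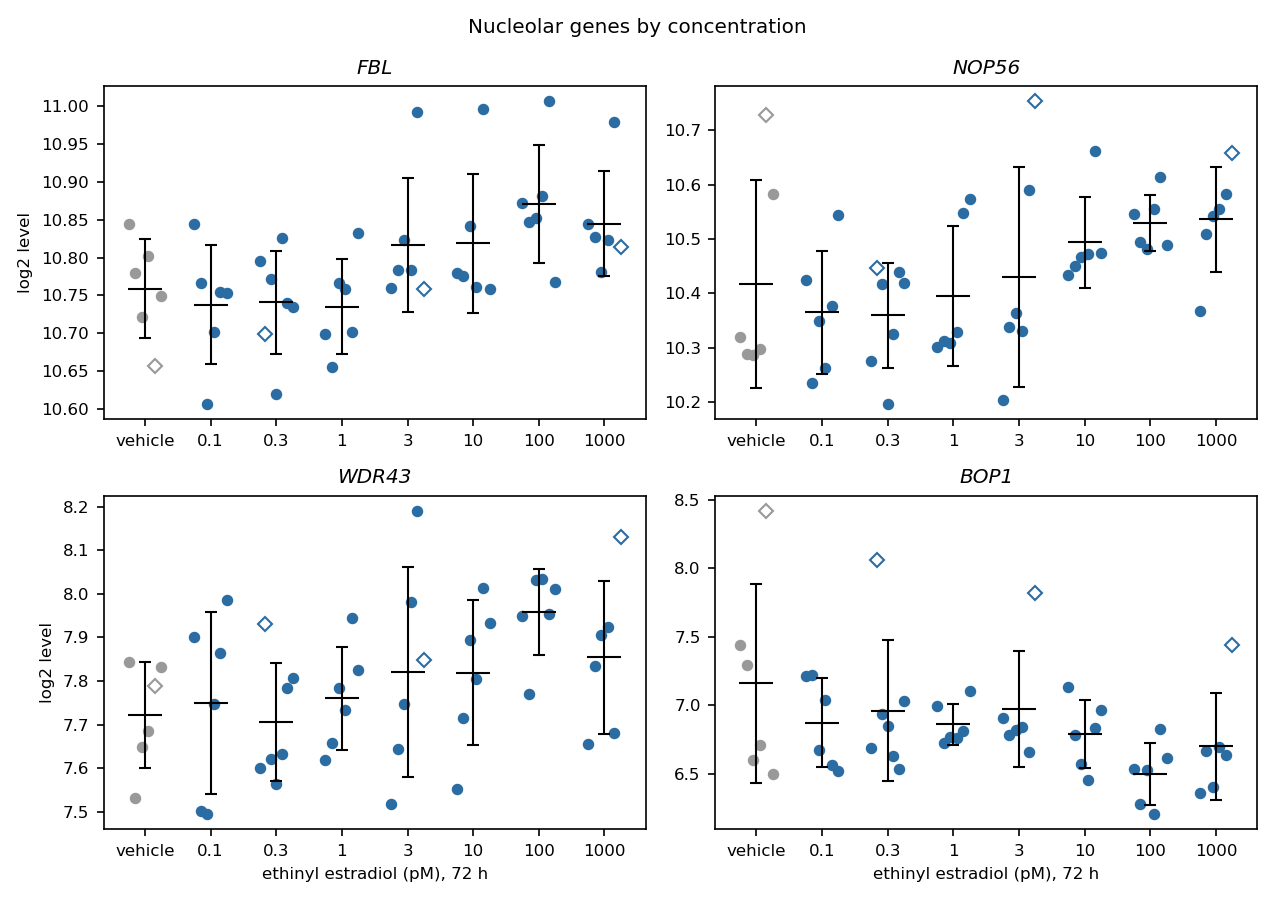
Log2 level (vertical axes, a scale per gene) of FBL, NOP56, WDR43 and BOP1 by EE concentration at 72 h (horizontal axes, pM), 1 point per array (grey vehicle, blue EE, open diamonds the 4 arrays of high beta-actin difference), with mean and SD as bars. FBL at 100 and 1000 pM spans 10.77 to 11.01, and the open diamonds of BOP1 lie above the other points of their groups, up to 8.42.

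The box H/ACA genes DKC1 (dyskerin, the pseudouridine synthase), GAR1 and NHP2, and NOLC1, a chaperone of these particles, had differences at 1000 pM between −0.03 and 0.04, with no call. GAR1 was higher without the 4 arrays at 100 pM (0.16 ± 0.05, 6 of 6 arrays, limma adjusted p = 0.0297) and in high against low concentrations (0.10 ± 0.04, adjusted p = 0.0381). With all arrays its values there were 0.10 ± 0.06 and 0.10 ± 0.04 (limma, adjusted p = 0.233 and 0.118).

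Estimates from the chosen probe sets for the abundant nucleolar proteins NCL and NPM1 were close to 0. NCL (nucleolin) read 11.70 to 11.88 in vehicle and 11.63 to 11.90 at 1000 pM, with a difference of 0.00 and a 95% interval of −0.09 to 0.10. NPM1 (nucleophosmin, a histone chaperone and nuclear export factor of ribosomes) read 12.45 to 12.55 in vehicle and 12.48 to 12.56 at 1000 pM, with a difference of 0.01 and an interval of −0.06 to 0.08. The groups overlapped for both genes. NPM1 has near-identical processed copies in the genome, which its probe set may also detect. Of the other NPM1 sets, 1 of somewhat lower signal gave 0.33 ± 0.13 at 100 pM and 0.18 ± 0.13 at 1000 pM. Neither passed (limma over all probe sets, adjusted p = 0.116 and 0.54). Another gave −0.03 and −0.02 (adjusted p = 0.636 and 0.784). NPM3, a relative of NPM1, differed by 0.07 ± 0.07 with all arrays and by 0.14 ± 0.07 without the 4 (limma, adjusted p = 0.634 and 0.206).

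WDR43 and UTP20, parts of the small-subunit processome that cleaves the early ribosomal RNA precursor, had 2 of the 4 largest positive estimates in high against low concentrations. WDR43 read 7.50 to 7.99 at 0.1 and 0.3 pM with a median of 7.75, and 7.66 to 8.13 at 100 and 1000 pM with a median of 7.94, so that the sets overlapped widely. Its difference of 0.18 ± 0.06 (10 of 12 arrays above the low mean) did not pass with all arrays and passed without the 4 (limma, adjusted p = 0.0595 and 0.0465). UTP20 followed with 0.17 ± 0.07 and 0.15 ± 0.05 (limma, adjusted p = 0.096 and 0.0304). BYSL, NOP14 and RRP9, further genes of small-subunit maturation, had differences of 0.10, 0.01 and −0.08, and none of the 3 passed in any comparison.

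Of the trimeric complex that PES1, BOP1 and WDR12 form in large-subunit assembly, no gene passed with all arrays. BOP1 was the most variable of the 33: its vehicle arrays read 6.50 to 8.42 with a median of 7.00, and those at 100 pM 6.21 to 6.82 with a median of 6.53. The groups overlapped, and the highest value of 0.3, 3 and 1000 pM and of vehicle was in each case from 1 of the 4 arrays. BOP1 was 0.66 ± 0.23 lower at 100 pM on 6 of 6 arrays (limma, adjusted p = 0.053), and 0.46 ± 0.23 lower at 1000 pM (adjusted p = 0.271). Without the 4 arrays it was 0.41 ± 0.14 lower at 100 pM (limma, adjusted p = 0.0449) and 0.30 ± 0.10 lower in high against low concentrations (adjusted p = 0.0195), on 10 of 11 high arrays. Of the 5 vehicle arrays left, replicates 1 and 2 read 7.44 and 7.29, with beta-actin differences of 2.06 and 1.72, and replicates 3, 4 and 6 read 6.50 to 6.71, with differences of 0.85 to 1.22. A further fit held the beta-actin difference as a covariate, and its BOP1 estimates are not given here. Beyond that fit, the part of this difference in the BOP1 result was not tested.

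WDR12 arrays read 8.43 to 8.92 in vehicle and 8.76 to 9.03 at 10 pM, where it was 0.19 ± 0.07 higher on 6 of 6 arrays without passing (limma, adjusted p = 0.212, and 0.13 ± 0.05 without the 4 arrays, adjusted p = 0.267). Without vehicle replicate 5, its lowest vehicle array, the vehicle mean was 8.79, above the lowest array at 10 pM. PES1 differed by −0.10 ± 0.14 at 1000 pM and by 0.00 ± 0.09 without the 4 arrays (limma, adjusted p = 0.753 and 0.999). The estimates of BOP1 and WDR12 had opposite signs at 1000 pM.

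RRS1 and NOP16, also large-subunit assembly factors, were above the vehicle mean on 6 of 6 arrays at 10, 100 and 1000 pM, with estimates of 0.17 to 0.20 for RRS1 and 0.16 to 0.19 for NOP16. RRS1 read 9.07 to 9.67 in vehicle and 9.49 to 9.81 at 1000 pM, and NOP16 8.98 to 9.62 and 9.49 to 9.65, so that each pair of groups overlapped. Neither gene passed (limma, adjusted p from 0.0929 to 0.358 over both genes and the 3 concentrations). Without the 4 arrays the estimates at 1000 pM were 0.12 and 0.08. The lowest vehicle value of both genes was that of replicate 5. Without it the vehicle means were 9.53 and 9.48, and the lowest arrays at 10 pM, 9.52 and 9.45, lay below them. NOP2, PPAN and RRP12, further ribosome assembly genes, differed by 0.07, −0.07 and 0.10 at 1000 pM and by 0.02, 0.05 and 0.20 without the 4 arrays, with no call in either (limma, adjusted p from 0.274 to 0.948).

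ODC1, the first enzyme of polyamine synthesis and a classic MYC target, read 10.97 to 11.51 in vehicle and 11.21 to 11.42 at 1000 pM. Its difference was −0.01, with a 95% interval of −0.12 to 0.09 (limma, adjusted p = 0.925), and without the 4 arrays it was −0.06 ± 0.03 (adjusted p = 0.245). The lowest values in vehicle, at 3 pM and at 1000 pM were those of the 4 arrays.

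**Figure D4:**
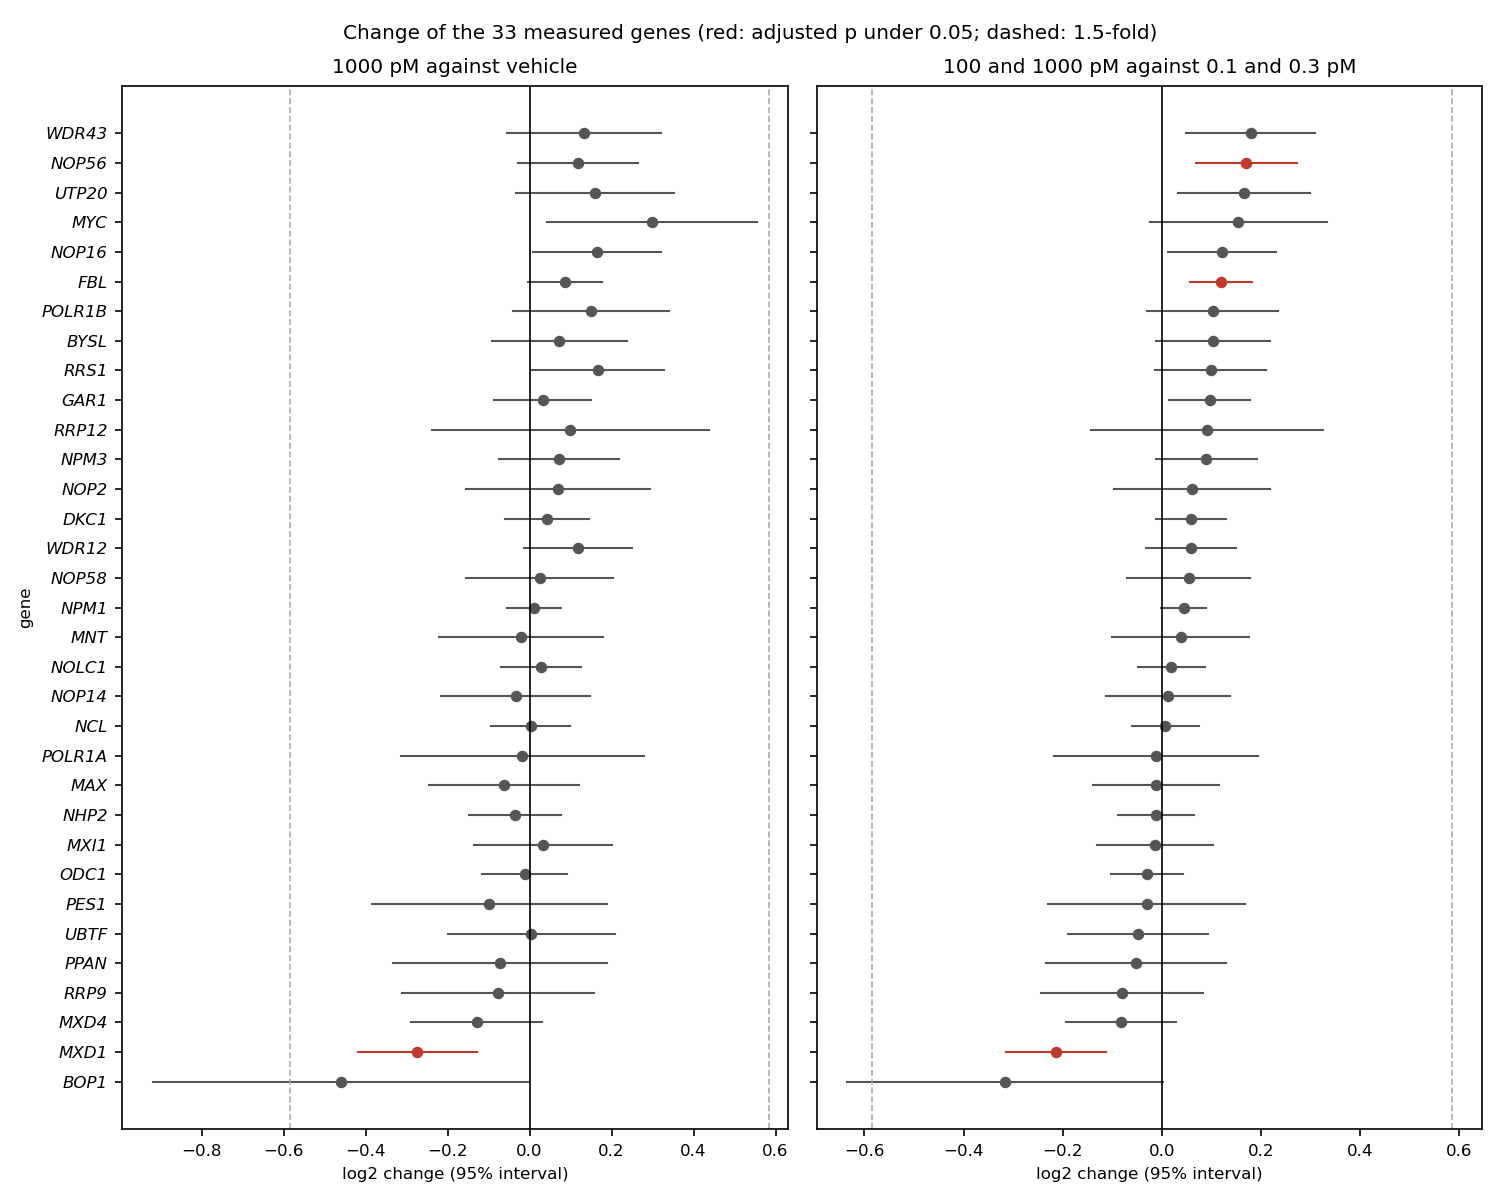
Estimated log2 change (points) with unadjusted 95% interval (bars) of the 33 genes at 1000 pM against vehicle (left) and at 100 and 1000 pM against 0.1 and 0.3 pM (right), red where the adjusted p is under 0.05, with dashed lines at 1.5-fold. MXD1 is red in both panels and FBL and NOP56 in the right one, and the interval of BOP1 alone crosses a dashed line.

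The data also bounded the changes that were not called. At 1000 pM against vehicle the unadjusted 95% intervals of 32 of the 33 genes lay within 1.5-fold in either direction, and those of 28 within 1.3-fold. In high against low concentrations 32 lay within 1.3-fold. BOP1 was the gene outside 1.5-fold in both, and BOP1, MXD1, MYC, PES1 and RRP12 were those outside 1.3-fold at 1000 pM. At 10 and at 100 pM against vehicle the intervals of both BOP1 and MYC reached beyond 1.5-fold. Those of 6 genes at 10 pM and 8 at 100 pM reached beyond 1.3-fold. A gene that missed the threshold may still have changed by less than these bounds.

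Beyond these genes, 7 lists of related genes that hold none of the 33 (307 genes, 285 measured) held 3 called genes with changes beyond 0.5 at 1000 pM, PIM1, SLC7A5 and POLR3G. Counts in these lists stand beside 7.21% of all genes called at 1000 pM (2.88% higher, 4.33% lower) and 13.0% in high against low concentrations (5.05% higher, 7.91% lower). Of 24 measured MYC network partners and regulators, PIM1 and RUVBL1 rose and MYCN fell at 1000 pM. PIM1, a kinase that stabilizes MYC, read 3.84 to 4.05 in vehicle, near the floor, 4.38 to 4.97 at 10 pM, 5.42 to 6.01 at 100 pM and 6.03 to 6.33 at 1000 pM. Its arrays at 10, 100 and 1000 pM lay above all vehicle arrays, and the difference at 1000 pM was 2.20 ± 0.11 on 6 of 6 arrays (limma, adjusted p = 8.88e-22). MYCN, a relative of MYC, read 6.48 to 7.57 in vehicle and 6.58 to 7.00 at 1000 pM, which overlapped. It was 0.47 ± 0.13 lower at 1000 pM and 0.52 ± 0.09 lower in high against low concentrations, on 12 of 12 arrays (limma, adjusted p = 0.0143 and 1.99e-05). The call of MYCN at 1000 pM was lost without vehicle replicate 4 (−0.41, limma adjusted p = 0.0514), and that of RUVBL1 (0.18 ± 0.05, adjusted p = 0.0182) without the 4 arrays (0.16, adjusted p = 0.0542).

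Of 77 measured genes of rRNA processing and assembly, 1 rose at 1000 pM (MRTO4, a placeholder for a ribosomal stalk protein, 0.19 ± 0.05, limma adjusted p = 0.0182). In high against low concentrations 4 of the 77 rose and 1 fell: PAK1IP1, ESF1, WDR3 and MRTO4 by 0.21, 0.20, 0.15 and 0.12, and DDX47 by −0.09 (limma, adjusted p from 0.00636 to 0.0373). Of 30 polymerase I and III genes, POLR3G, a subunit of polymerase III, rose at 1000 pM to 6.56 ± 0.24, against 6.05 ± 0.26 in vehicle (SD, n = 6 each), a difference of 0.52 ± 0.10 (limma, adjusted p = 0.000364). In high against low concentrations 4 of the 30 rose, with POLR3G (0.48), POLR1D (0.15) and TAF1D (0.14) the largest. Of 69 measured ribosomal protein genes, many with near-identical pseudogenes, limma called 0 at 1000 pM (6 at an unadjusted p under 0.05) and 1 in high against low concentrations (RPS25, 0.12 ± 0.04, adjusted p = 0.0173). Over all 11075 genes, 2042 had an unadjusted p under 0.05 at 1000 pM (limma). Of the 69, 54 were above 0 at 1000 pM, with a median of 0.02, against 45.7% and a median of −0.01 over all genes.

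Of 41 measured translation factors, 1 rose at 1000 pM (EIF1AX, an initiation factor, 0.35 ± 0.10, limma adjusted p = 0.0234, and 0.20 ± 0.08 without the 4 arrays, adjusted p = 0.136), and 4 rose in high against low concentrations. The latter included PDCD4, an inhibitor of the helicase EIF4A, at 0.25 ± 0.05 on 12 of 12 arrays (limma, adjusted p = 4.6e-05). Of 33 MYC targets in nucleotide synthesis and metabolism, 4 rose and 1 fell at 1000 pM, and 7 rose and 1 fell at 100 pM (beside 10.1% of all genes called there). SLC7A5, a transporter of large neutral amino acids, read 9.79 to 10.49 in vehicle and 10.36 to 11.09 at 1000 pM, with overlap, and was 0.55 ± 0.12 higher (limma, adjusted p = 0.00103). The others were GART (purine synthesis, 0.24), LDHA (lactate dehydrogenase, 0.23), PHB1 (prohibitin, 0.20) and SHMT1 (serine and glycine conversion, −0.19), of which GART was 0.10 without the 4 arrays and no longer passed (limma, adjusted p = 0.358). Without vehicle replicate 5 alone GART was 0.13, LDHA 0.105, SHMT1 −0.125, MRTO4 0.16 and EIF1AX 0.21, and none of these 5 passed (limma, adjusted p from 0.0679 to 0.229).

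Of 11 polyamine genes beside ODC1, SAT1, the enzyme that starts polyamine breakdown, fell at 100 and 1000 pM. It read 9.67 to 10.15 in vehicle and 9.37 to 9.64 at 1000 pM, so that the groups did not overlap, with a difference of −0.40 ± 0.08 on 6 of 6 arrays (limma, adjusted p = 0.000428). Without the 4 arrays the counts called in high against low concentrations were 11 of 77 for rRNA processing, 6 of 30 for the polymerases, 7 of 69 for ribosomal proteins, 8 of 41 for translation, 9 of 33 for nucleotide synthesis and metabolism, 4 of 24 for the network and 2 of 11 for polyamines, beside 21.2% of all genes. Medians over these 7 lists at 1000 pM lay between −0.02 (polyamine genes) and 0.09 (nucleotide synthesis and metabolism). For nucleotide synthesis and metabolism the median was 0.05 at 0.1 and at 0.3 pM with all arrays. Without the 4 arrays it was 0.0018 at 0.1 pM, 0.008 at 0.3 pM and 0.06 at 1000 pM.

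**Figure D5:**
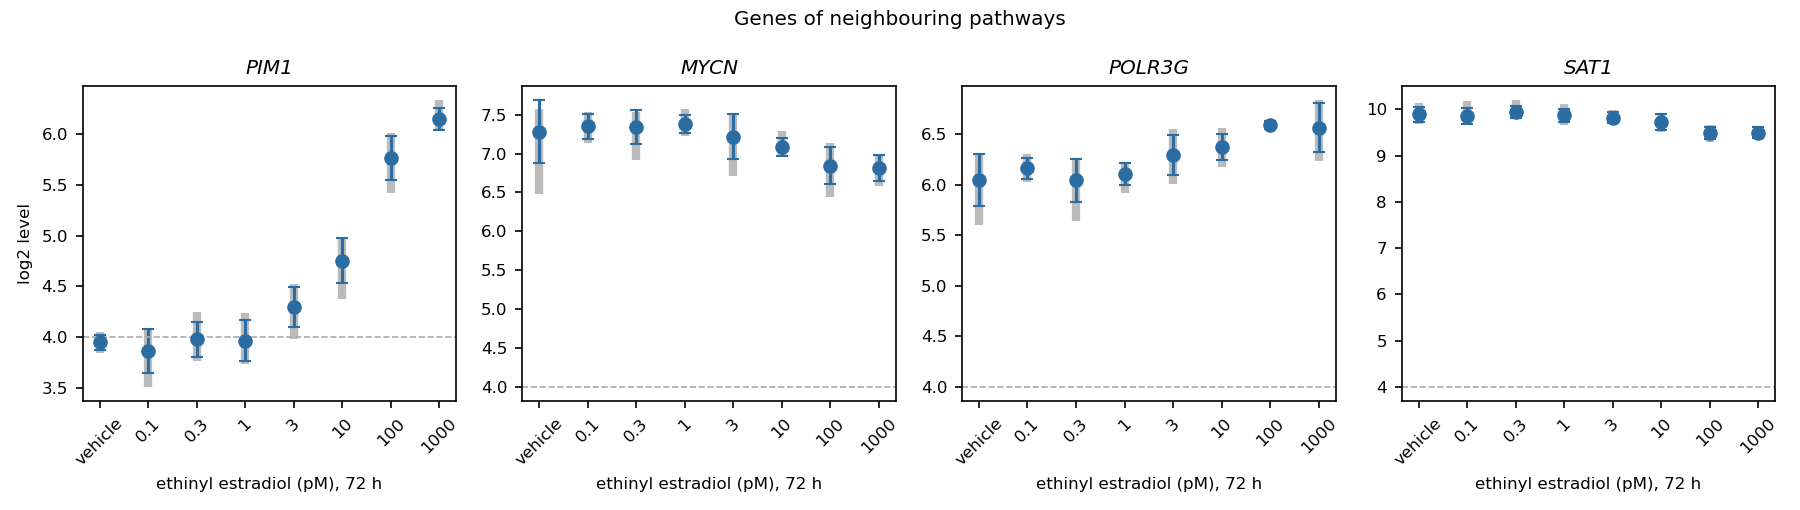
Log2 level (vertical axes, a scale per gene) of PIM1, MYCN, POLR3G and SAT1 by EE concentration at 72 h (horizontal axes, pM, with vehicle), with the group mean (blue point), SD (error bar) and the range of arrays (grey bar); the dashed line is the floor of 4. PIM1 climbs from near the floor to 6.15 at 1000 pM, while SAT1 goes from 9.89 in vehicle to 9.49.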

How the data were processed

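Expression was measured in 49 samples with Affymetrix arrays whose probe set names are of the perfect-match design. The deposited values are log2 expression levels that the authors made with GCRMA in Partek, per the submitters' processing notes, with no versions given there. GCRMA subtracts a sequence-based background and normalizes across arrays, which compresses values near the floor, and array medians lay between 2.95 and 3.05. No probe intensities were used here, and the number of arrays limits the precision.

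The platform annotation gave 1 symbol for 40920 of 54715 probe sets, more than 1 for 864 and none for 12931. Probe sets over a log2 value of 4 on at least 6 arrays entered (22721), and of those with 1 symbol the set with the highest mean was kept per gene, which left 11075 genes. A linear model over all 8 groups was fitted to the log2 values with limma 3.58.1 (R 4.3.3), moderated with an intensity trend, and p-values were adjusted by the Benjamini-Hochberg method over all 11075 genes at 0.05. All p-values are two-sided and given with SE of the difference, and group levels with SD. Comparisons were each of 7 concentrations with vehicle, 100 and 1000 pM with 0.1 and 0.3 pM, and the moderated F test over the 8 groups. The fit was tested on simulated data. Genes described with array values were MYC, MAX, the antagonists, named nucleolar genes and ODC1 (16 genes), and genes of other lists were named where they passed the test. The members and lists were chosen with earlier results of these data known. The 4 arrays of high beta-actin difference lay over 4 median absolute deviations above the median, and 2 of them over 5. Alternatives were other filters, normalizations, weights, variance priors, probe set rules, thresholds and sets of arrays, of which leaving out single arrays was chosen after seeing the data. Promoters came from RefSeq (GRCh38.p14).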

Additional observations from a re-analysis of the deposited data

Results flagged for a closer look

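Of 128 groups of arrays tested (16 genes in 8 groups), 19 had an array far from the others relative to the range of its group, where chance gives about 1 in 20. Of these, 12 were on the 4 arrays of high beta-actin difference and 7 on other arrays. Vehicle replicate 5 was lowest for MYC (8.04, nearest other array 9.11), MXI1 (7.55, nearest 7.98) and ODC1 (10.97, nearest 11.41), and highest for MNT (7.57, nearest 7.03). Replicate 2 at 0.3 pM was highest for MAX (8.29, nearest 7.92) and BOP1 (8.06, nearest 7.03) and lowest for MXI1 (7.63, nearest 7.95). Replicate 6 at 3 pM was highest for MAX (8.39, nearest 7.96) and BOP1 (7.82, nearest 6.91) and lowest for ODC1 (11.23, nearest 11.43). Replicate 6 at 1000 pM was highest for BOP1 (7.44, nearest 6.69) and lowest for ODC1 (11.21, nearest 11.36).

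On the other arrays, replicate 5 was the highest array for FBL at 3 pM (10.99, nearest 10.82), at 10 pM (11, nearest 10.84) and at 1000 pM (10.98, nearest 10.84). Replicate 5 at 10 pM was also the highest for NOP56 (10.66, nearest 10.47) and RRS1 (9.9, nearest 9.65). Replicate 2 was the lowest array for WDR43 at 100 pM (7.77, nearest 7.95) and for NOP16 at 1 pM (9.19, nearest 9.47).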

How the results depend on the processing

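Counts of the 33 genes called changed under these settings (limma). At 10 pM 1 gene (MYC) was called under quantile normalization, median centring, array weights and without the 4 arrays of high beta-actin difference. At 100 pM the count was 1 without a filter, 5 with array weights, 0 at a threshold of 0.01 and 0 with only the groups compared in the fit. At 1000 pM it was 0 with the mean of a gene's probe sets and 0 with only the groups compared. For high against low concentrations it was 9 with array weights, 8 without the 4 arrays, 6 without the 2 highest, 8 with the beta-actin difference as a covariate and 5 with only the groups compared. Over all 11075 genes the calls there also rose, from 1435 with all arrays to 2349 without the 4 and 1869 without the 2. The F test called 0 without a filter, with the mean of probe sets and at 0.01, and 3 with array weights, without the 4 arrays and with the covariate. Without the 4 arrays it called 10.5% of all genes. Shares of all genes under the other settings of this paragraph are not given here. Leaving out replicates or single arrays gave 0 to 1 at 10 pM, 0 to 5 at 100 pM, 0 to 3 at 1000 pM, 1 to 6 for high against low and 0 to 1 for the F test. At 0.1, 0.3, 1 and 3 pM it was 0 throughout.

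Replicate numbers did not consistently pair the arrays of the groups compared. Of 6 same-numbered pairs per vehicle comparison 3 or 4 correlated above 0.1, as did 7 of 24 for high against low. Of 48 arrays, 19 correlated best with arrays of their own number, and the number that chance would give was not worked out. Deviations shared by arrays of different numbers were not tested, and the main fit treats all arrays as independent. Among 1, 3, 10 and 100 pM, which are not compared with each other here, all 36 same-numbered pairs correlated at 0.1 to 0.638. For 1000 pM, pairs above 0.1 were 6 of 6 with 1 pM, 6 of 6 with 3 pM (up to 0.861), 5 of 6 with 10 pM and 4 of 6 with 100 pM. Arrays of these groups, 1000 pM included, thus shared deviations. The main p-values for high against low concentrations count 100 and 1000 pM as 12 independent arrays and take no account of this. With the replicate block the count for high against low was 5 (UTP20 and WDR43 beside FBL, MXD1 and NOP56) and for the other comparisons as before.

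Of the genes described with array values and CDH1, signs turned for some near 0 that were not called. At 1000 pM these were NCL (−0.0097) and NPM1 (−0.0052) under quantile normalization, MAX (0.0042), MNT (0.015) and MXI1 (−0.0302) with array weights, CDH1 (0.016) and MAX (0.15) with the mean of probe sets, MNT (0.0493) and MXI1 (−0.0422) without the 4 arrays, MAX (0.0189), MNT (0.0907) and MXI1 (−0.0542) without the 2, and MAX (0.0046), MNT (0.0143) and MXI1 (−0.0133) with the covariate. Of the other members, PES1 (0.0008), POLR1A (0.0074) and PPAN (0.0463) turned at 1000 pM and PES1 (0.0059) for high against low without the 4 arrays, the 1 setting examined for them. For high against low they were NCL (−0.012) under quantile normalization and MAX with array weights (0.0113), the mean of probe sets (0.0376) and without the 2 arrays (0.0194). Leaving out arrays gave, at 1000 pM, MAX −0.1458 to 0.0295, NCL −0.0295 to 0.0229, ODC1 −0.1042 to 0.0458, MNT −0.0805 to 0.087 and MXI1 −0.0217 to 0.0539, and for high against low MAX −0.08 to 0.0329, NCL −0.0161 to 0.0267 and MXI1 −0.0569 to 0.0288. The cause of these changes was not tested.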

Other observations

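Of the 33 genes, 12 had more than 1 probe set above the filter, and for 9 of these all sets lay on the same side of 0 in high against low concentrations. The second NOP56 set differed by 0.16 and the second BOP1 set by −0.10 (limma over all 22721 probe sets, adjusted p = 0.119 and 0.557). Of the epithelial markers, SOX17 rose by 0.73 in that comparison, while KRT19, CDH1 and KRT18 were lower by −0.25, −0.13 and −0.12 (limma, adjusted p from 3.9e-17 to 0.00653), and their part in the results was not tested.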
